A study of Mus musculus with 31 samples.

Results

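The XY gonads described here had lost both Sox9 and Ctnnb1 in their somatic cells. They were the 3 arrays titled XY Ctnnb1/Sox9 DKO (replicates 2, 3 and 4), called XY DKO below, and were set against the 4 arrays titled XY Ctr, so that 7 of the 31 arrays of the series carried the main comparison. Every array measured RNA from 1 pair of mouse gonads, freed of the mesonephros, at embryonic day 14.5. All groups carried the Sf1-cre transgene (Sf1-cre+/Tg), a Cre driver of gonadal somatic cells that germ cells do not use. XY DKO gonads were floxed on both alleles of each gene (Ctnnb1f/f with Sox9f/f). XY control gonads were Ctnnb1+/f with Sox9+/f, so they carried Cre too and could lose 1 allele of each gene. As reference points, XY Sox9KO (4 arrays, Ctnnb1+/f with Sox9f/f) differed from XY DKO in the second Ctnnb1 allele, and XX control (4 arrays) was the ovary of the control genotype. For some genes the values of XY Ctnnb1KO (4 arrays, Ctnnb1f/f with Sox9+/f) and of XX DKO (4 arrays, XX gonads of the XY DKO genotype) are given beside them. The comparison asks what becomes of an XY gonad that has neither the testis factor nor the ovary signal.

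In the fetal testis, the transcription factor SOX9 drives supporting cells to become Sertoli cells. These enclose germ cells in cords, produce anti-Müllerian hormone, and signal through desert hedgehog (DHH) to interstitial cells, some of which become steroid-producing fetal Leydig cells. In the fetal ovary, RSPO1 and WNT4 stabilise beta-catenin, the product of Ctnnb1, in supporting cells, which become FOXL2-expressing pregranulosa cells while germ cells enter meiosis under retinoic acid. Beta-catenin also links cadherins at cell junctions.

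Values are MAS5 signal, a linear intensity per probe set, given as mean ± SD between arrays. Differences are on the log2(signal + 16) scale with the SE from limma, which understates changes of dim genes, and called means an adjusted p under 0.05 (Benjamini-Hochberg over all genes tested). Signal depends on the probe set, so levels are compared between arrays and not between genes. No label says that arrays of a group came from different litters, so p-values measure only the spread between these pairs of gonads. The number of arrays limits the precision.

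The labels were read against the targeted and sex-linked genes first. Sox9 signal was 856.6, 839.7, 1024.9 and 995.1 on the XY control arrays and 34.5, 8.6 and 34.9 on the XY DKO arrays, a difference of -4.56 ± 0.47 (adjusted p = 1.18e-08). The brightest Ctnnb1 probe set read 12797.7 ± 470.1 (n = 4) in XY control and 12486.2 ± 1238.8 (n = 3) in XY DKO (-0.04 ± 0.07, adjusted p = 0.753). Of the other Ctnnb1 probe sets, 1 read 3836.4 ± 296.9 and 3837.4 ± 421.6 and 1 read 1663.2 ± 50.9 and 1315.9 ± 65.8. The position of these probe sets relative to the deleted part of Ctnnb1 is not known here, so their values do not check the label. Y-linked Eif2s3y read 3522.0 to 3709.8 on the XY DKO arrays and Xist 46.3 to 97.1. XY DKO replicate 3 had the lowest median signal of the 7 arrays (120.6, against 147.1 to 167.8 on the others) and the highest actin 3' to 5' ratio of all 31 arrays (1.212). Some counts are also given without 1 XY DKO array, and counts given without this check can move as well.

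Of 11779 genes tested, 2032 (17.3%) were called between XY DKO and XY control: 1135 were higher (9.64%) and 897 lower (7.62%) in XY DKO, and 227 and 232 of these by at least 2-fold. Without XY DKO replicate 3, 740 genes were called higher. The median difference over all genes tested was 0.04. Against XY Sox9KO, 2573 genes were called (21.8%), of which 1305 were higher (11.1%) and 1268 lower (10.8%), with a median of -0.02. Against XX control, 3091 genes were called (26.2%), of which 1716 were higher (14.6%) and 1375 lower (11.7%), with a median of 0.02. These 3 comparisons share the XY DKO arrays, so their values stand side by side below and are not independent of each other. Each gene list is read against these percentages and medians. In whole gonads, fewer cells of a type and less RNA per cell cannot be told apart.

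In the plot of single genes by list, Sertoli and steroid genes lay mostly below 0 and pregranulosa, meiosis and macrophage genes mostly above it.

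**Figure D1:**
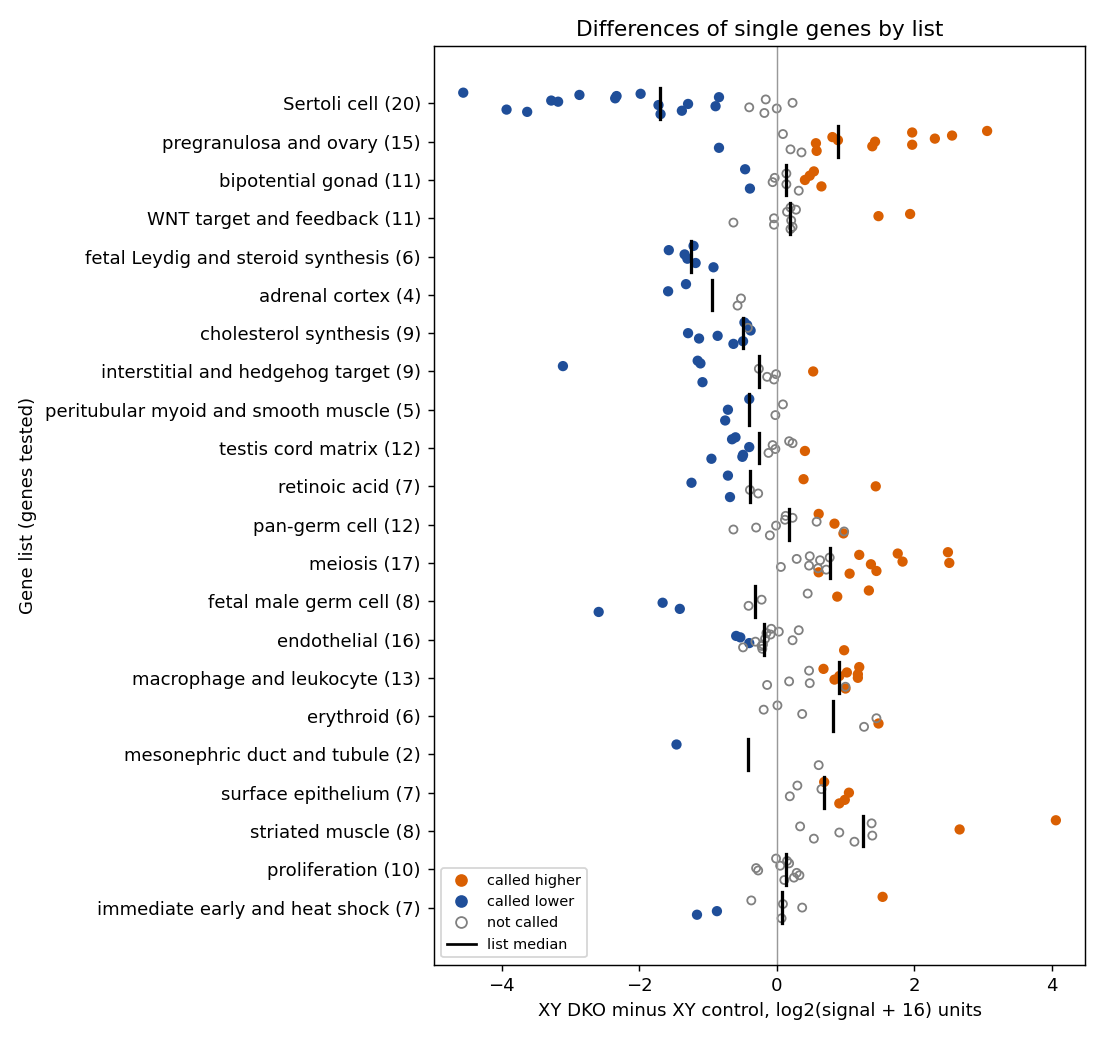
Difference between XY DKO and XY control in log2(signal + 16) units (x axis) for every tested gene of each list (y axis, number of genes tested in brackets), with called genes filled and the list median as a bar. The Sertoli cell median was -1.70 and the pregranulosa and ovary median 0.89, and no proliferation gene was called.

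Sertoli cell genes fell as a group but not uniformly. Of the 24 listed genes, 20 were tested, 15 fell, 0 rose and 5 were not called, with a median of -1.70. Against XY Sox9KO, 11 of the 20 were higher and 1 lower (median 0.89), and against XX control 10 were higher and 3 lower (median 0.75). The 3 lower genes became 1 without XY DKO replicate 3 and 5 without replicate 4, and the 1 gene lower than in XY Sox9KO became 2 without replicate 4. Members therefore fell into 3 patterns, which are described in turn: genes at or below the level of the gonads without testis development, genes between that level and XY control, and genes that were not called against XY control.

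The first pattern held genes with XY DKO signal as low as in an ovary. Tesc, encoding the calcium-binding protein tescalcin, read 1770.8, 1724.9, 1875.9 and 1516.7 on the XY control arrays and 125.0, 102.9 and 149.0 on the XY DKO arrays (-3.63 ± 0.17, adjusted p = 5.22e-16). XX control read 139.7 ± 25.2, and the difference of XY DKO from it was -0.13 ± 0.17 (adjusted p = 0.607). The XY DKO arrays lay far below the XY control range and near the ovary level. Col9a3, a collagen chain, read 1499.7, 1816.1, 1375.6 and 1770.1 in XY control and 82.2, 68.9 and 128.1 in XY DKO (-3.93 ± 0.24, adjusted p = 1.66e-13), and XX control read 142.1 ± 35.3. Amh, the hormone that makes the female ducts regress, read 211.3, 207.1, 234.1 and 206.5 in XY control and 26.2, 10.4 and 12.4 in XY DKO (-2.87 ± 0.41, adjusted p = 3.97e-06). The XX control arrays read 13.1, 7.6, 5.8 and 48.3, so XY DKO and ovary arrays lay in the same range. Mro and Fgf9, a growth factor that sustains Sox9 in the testis, also fell (-1.38 ± 0.18 and -0.84 ± 0.20) and were not called against XX control or XY Sox9KO. The other Fgf9 probe set read 92.5 ± 11.7 in XY control, 81.2 ± 14.2 in XY DKO and 53.5 ± 11.3 in XX control. The pattern of Fgf9 thus depends on the probe set. Aard went lower than in the ovary. It read 5916.8, 7573.2, 6680.7 and 6578.3 in XY control, 714.3, 666.2 and 784.2 in XY DKO, and 1297.2 ± 75.0 in XX control, from which XY DKO differed by -0.83 ± 0.14 (adjusted p = 3.16e-05). Cldn11, the claudin of Sertoli cell tight junctions, was the other such gene beside Sox9 itself, at 475.5 ± 92.0 in XY control, 189.5 ± 67.6 in XY DKO and 341.8 ± 132.8 in XX control (adjusted p = 0.0134 against XX control).

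The second pattern held genes that fell yet stayed above the ovary or, for Sox8, above XY Sox9KO only. Dhh, the hedgehog ligand of Sertoli cells, read 2268.7, 2313.0, 2394.5 and 2014.7 on the XY control arrays and 390.8, 448.6 and 468.1 on the XY DKO arrays (-2.33 ± 0.18, adjusted p = 4.24e-11). In XX control it read 46.0 ± 20.4, so XY DKO was higher by 2.92 ± 0.18 (adjusted p = 2.14e-13). No XY DKO array reached the range of either control. Cst9, encoding the secreted cystatin 9, read 5596.6, 6906.7, 5913.1 and 6842.9 in XY control and 577.5, 531.2 and 832.8 in XY DKO (-3.28 ± 0.15, adjusted p = 4.88e-16), against 164.4 ± 17.2 in XX control. Ptgds, the prostaglandin D synthase that feeds a relay of Sox9 induction, fell from 8284.4 ± 1100.3 to 1613.7 ± 251.1 (-2.35 ± 0.24), with 243.6 ± 83.5 in XX control. Cyp26b1, the enzyme that degrades retinoic acid in the fetal testis, read 756.4, 1115.1, 976.3 and 1151.5 in XY control and 340.2, 232.3 and 305.0 in XY DKO (-1.72 ± 0.22, adjusted p = 6.28e-07), and 85.9 ± 26.4 in XX control. XY DKO thus kept a level of Cyp26b1 between that of testis and ovary on all 3 arrays. Gdnf, a growth factor for male germ cells, fell from 179.6 ± 16.9 to 44.8 ± 4.7 and was higher than in XX control (7.6 ± 9.2) by 1.43 ± 0.32. Hsd17b3, a testosterone-producing enzyme that fetal Sertoli cells express, read 2655.7 ± 221.3, 1442.3 ± 267.7 and 15.4 ± 8.3 in XY control, XY DKO and XX control. Its fall of -0.89 ± 0.27 had an adjusted p of 0.022 and was not called without XY control replicate 3, XY DKO replicate 2 or XY DKO replicate 3 (highest adjusted p over all settings 0.206). The fall of Hsd17b3 was also not called with a pseudocount of 1. Sox8, the relative of Sox9 with which it acts redundantly, fell from 648.9 ± 98.5 to 152.7 ± 25.6 (-1.98 ± 0.19) and was higher than in XY Sox9KO (79.2 ± 12.5, adjusted p = 0.00201) but not called against XX control (106.6 ± 31.7, adjusted p = 0.0622). Sostdc1, a secreted BMP and WNT antagonist outside the list, had the same order, with 3651.3 ± 330.1, 541.3 ± 224.0 and 51.5 ± 18.6.

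The third pattern held testis genes that were not called against XY control. Inhbb, the beta B subunit of activin and inhibin, read 3611.3, 4538.8, 4069.0 and 3946.7 in XY control and 3868.3, 4173.9 and 4033.2 in XY DKO, and XX control read 1835.2 ± 329.6. All XY DKO values of Inhbb lay inside the XY control range, and the difference was 0.00 ± 0.14 (adjusted p = 0.995). Against XX control it was higher by 1.15 ± 0.14 (adjusted p = 1.79e-07). Hsd17b1, an estrogen- and androgen-forming dehydrogenase of fetal Sertoli cells, read 990.6, 663.0, 906.1 and 845.9 in XY control and 487.9, 635.3 and 822.2 in XY DKO, ranges that overlap, while XX control read 50.5 ± 16.2 (3.32 ± 0.34, adjusted p = 6.52e-09). Etv5, a transcription factor of FGF signalling, read 1410.6 ± 168.1 and 1246.0 ± 162.8, and 612.1 ± 85.4 in XX control. The other Etv5 probe sets differed more from XY control, by -0.36 and -0.52, so its level against XY control depends on the probe set. Vnn1, a pantetheinase, read 1687.0 ± 146.0 and 1981.8 ± 183.9, and 642.7 ± 143.0 in XX control. These 4 genes were each higher in XY DKO than in XY Sox9KO, by 0.95 ± 0.14 for Inhbb, 2.96 ± 0.34 for Hsd17b1, 1.14 ± 0.21 for Etv5 and 1.52 ± 0.16 for Vnn1. Dmrt1, which Sertoli and germ cells both express, read 679.3, 1055.0 and 400.3 on the XY DKO arrays and was called in none of the 3 comparisons. Outside the tested genes, Sox10 read 121.1 to 177.6 in XY control and 8.3 ± 4.3 in XY DKO, Fshr, the receptor for follicle-stimulating hormone, 95.5 ± 22.5 and 23.8 ± 8.8, and Erbb4 44.9 ± 7.4 and 17.2 ± 9.5. These 3 genes did not pass the filter on dim genes and have no test.

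**Figure D2:**
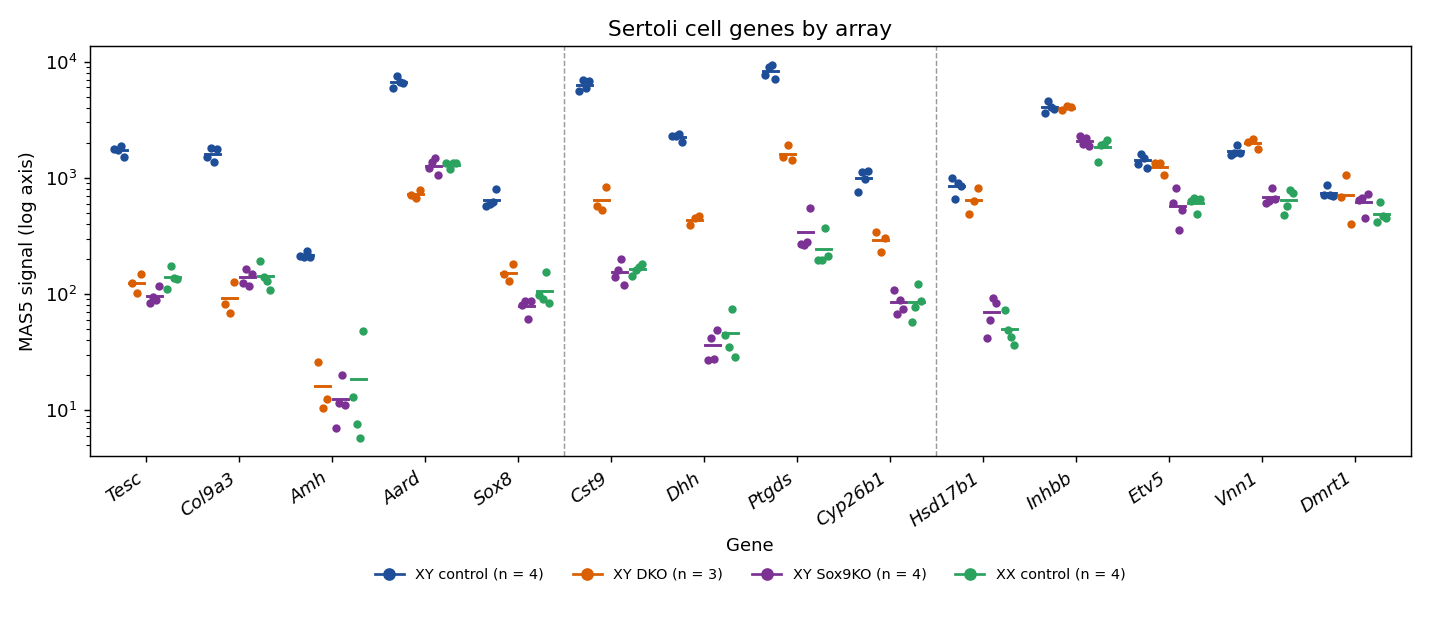
MAS5 signal (log y axis) of Sertoli cell genes (x axis) on each array of XY control (n = 4), XY DKO (n = 3), XY Sox9KO (n = 4) and XX control (n = 4), with group means as bars and dashed lines between the 3 blocks of genes. XY DKO points of Tesc, Col9a3 and Amh lay among or near those of XX control, those of Cst9, Dhh, Ptgds and Cyp26b1 between the controls, and those of Inhbb, Etv5 and Vnn1 near XY control. Sox8, which the text describes with the second pattern, is drawn in the first block.

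The starts of Cst9, Cstdc1 and Ptgds are shown as examples of genes that fell with the loss of Sox9 and hold the core letters that SOX proteins bind. Windows ran from 250 bases before to 50 after the start of each gene (300 bases, RefSeq, GRCm38.p6), and ACAAAG was searched on both strands. Capitals mark the match, CTTTGT being ACAAAG on the other strand. Cst9 (chr2:148834897-148835196, plus strand) held 2 matches, and Cstdc1 (chr2:148781759-148782058, plus strand), a cystatin gene in the same region that fell by 3.50 on the log2 scale, held 1. Ptgds (chr2:25469700-25469999, minus strand) held 1.
Cst9: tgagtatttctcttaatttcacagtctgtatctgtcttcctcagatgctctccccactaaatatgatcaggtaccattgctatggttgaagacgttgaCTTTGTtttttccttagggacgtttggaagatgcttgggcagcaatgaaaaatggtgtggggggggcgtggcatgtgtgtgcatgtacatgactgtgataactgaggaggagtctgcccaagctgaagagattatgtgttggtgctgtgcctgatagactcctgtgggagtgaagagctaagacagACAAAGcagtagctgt
Cstdc1: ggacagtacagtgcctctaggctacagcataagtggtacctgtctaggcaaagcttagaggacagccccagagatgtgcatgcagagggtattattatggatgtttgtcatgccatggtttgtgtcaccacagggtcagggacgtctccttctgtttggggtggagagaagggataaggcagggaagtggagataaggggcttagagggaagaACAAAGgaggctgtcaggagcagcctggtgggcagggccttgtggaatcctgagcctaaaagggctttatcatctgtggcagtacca
Ptgds: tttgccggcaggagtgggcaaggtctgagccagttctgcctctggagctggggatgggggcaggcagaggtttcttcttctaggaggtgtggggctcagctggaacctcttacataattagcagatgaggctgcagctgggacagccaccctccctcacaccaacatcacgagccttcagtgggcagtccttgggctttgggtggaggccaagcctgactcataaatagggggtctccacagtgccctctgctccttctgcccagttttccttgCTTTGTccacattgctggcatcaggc
Of all 32851 windows, 18.7% held a match, against 33 of 220 windows (15.0%) of genes that fell at least 2-fold and 42 of 213 (19.7%) of genes that rose at least 2-fold. Among Sertoli list genes, 12 had a window and 3 held a match. A match describes the letters and is not a measured binding site.

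Ovarian genes moved the opposite way, and most stopped short of the ovary. Of 15 pregranulosa and ovary genes tested, 11 rose, 1 fell and 3 were not called against XY control (median 0.89). Against XX control, 12 were lower and 1 higher (median -1.26), and against XY Sox9KO, 13 were lower and 1 higher (median -1.47). Foxl2, the transcription factor that maintains granulosa cells, read 53.4, 60.8, 38.4 and 51.2 on the XY control arrays and 590.0, 588.3 and 448.4 on the XY DKO arrays (3.06 ± 0.17, adjusted p = 1.51e-14). XX control read 1610.0 ± 88.8, so XY DKO stayed lower by -1.55 ± 0.17 (adjusted p = 1.93e-08). The XY DKO arrays lay between the 2 controls without overlap. Fst, encoding the activin antagonist follistatin, went a shorter way. It read 67.5, 74.3, 54.6 and 69.0 in XY control, 318.9, 270.1 and 330.9 in XY DKO and 3141.7 ± 323.4 in XX control, a rise of 1.97 ± 0.14 and a difference from the ovary of -3.29 ± 0.14 (adjusted p = 1e-17). Runx1, a transcription factor of pregranulosa cells, rose from 184.0 ± 24.1 to 764.2 ± 75.0 (1.97 ± 0.16), with 1874.3 ± 372.9 in XX control. Irx3 (2.30 ± 0.18), Msx1 (1.43 ± 0.17) and Bmp2 (0.81 ± 0.15), the last a ligand made by pregranulosa cells, rose in the same partial way and were lower than in XX control by -2.41 ± 0.18, -2.86 ± 0.17 and -1.49 ± 0.15. The other Msx1 probe set read 49.1 ± 5.2 in XY control, 51.4 ± 30.8 in XY DKO and 331.6 ± 59.6 in XX control. The rise of Msx1 thus depends on the probe set. Lgr5, a receptor for R-spondins that marks ovarian surface and pregranulosa cells, read 51.9, 78.3, 91.2 and 60.6 in XY control and 136.6, 87.5 and 113.2 in XY DKO, which overlap. Its call (0.57 ± 0.17, adjusted p = 0.0172) was lost without XY control replicate 1 or XY DKO replicate 2 (highest adjusted p over all settings 0.189), and XX control read 954.2 ± 131.3.

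Rspo1, the secreted activator of WNT signalling that starts ovary development, passed the ovary. It read 660.8, 662.8, 623.8 and 677.8 in XY control, 3696.7, 3578.4 and 4560.4 in XY DKO, 2625.8 ± 124.5 in XX control and 2534.7 ± 278.8 in XY Sox9KO. The rise over XY control was 2.55 ± 0.11 (adjusted p = 6.83e-17), and the differences from XX control and XY Sox9KO were 0.58 ± 0.11 (adjusted p = 0.000181) and 0.63 ± 0.11 (adjusted p = 5.79e-05). XX DKO read 4221.3 ± 476.6, in the range of XY DKO. Among the 15 list members tested, Rspo1 alone was called above XX control. Wnt4, the WNT ligand of the ovary, stayed near the XY control level. It read 659.0, 669.4, 626.5 and 744.0 in XY control and 755.8, 628.6 and 776.5 in XY DKO (0.09 ± 0.12, adjusted p = 0.683), with 1490.2 ± 141.2 in XX control and 2034.2 ± 179.7 in XY Sox9KO. Kitl, the KIT ligand, stayed with XY control in the same way at 1342.8 ± 138.9 against 1170.1 ± 175.8, and XX control read 4970.0 ± 656.0. Another Kitl probe set read 935.1 ± 66.7 in XY control and 1423.1 ± 264.0 in XY DKO (0.58), and the remaining ones differed by 0.25 and 0.08. The Kitl level against XY control thus depends on the probe set. Fzd1, a WNT receptor, was the member that fell, from 1206.5 ± 140.4 to 664.1 ± 60.2 (-0.84 ± 0.13), and read 664.2 ± 91.1 in XX control. Esr2, estrogen receptor beta, was too dim for the test and read 52.5 ± 16.7 in XY control, 105.3 ± 25.9 in XY DKO and 20.6 ± 8.2 in XX control.

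Target and feedback genes of canonical WNT signalling, which report on beta-catenin activity, were called against XY control about as often as all genes tested. Of 11 tested, 2 rose, 0 fell and 9 were not called (median 0.20), where 17.3% of all genes tested were called. Against XY Sox9KO, where 1 Ctnnb1 allele is not floxed, 7 were lower and 1 higher (median -0.80), and against XX control 6 were lower and 1 higher (median -0.73), the latter not called without any 1 of the XY DKO arrays. Axin2, the feedback inhibitor often used as a readout of the pathway, read 788.8, 515.1, 596.9 and 633.7 in XY control and 757.6, 742.0 and 675.8 in XY DKO, within the control range. In XX control it read 1599.0 ± 155.0, above all XY DKO arrays (-1.12 ± 0.13, adjusted p = 1.14e-07). Lef1, Nkd1, Rnf43 and Apcdd1 had the same order, with differences from XY control of 0.28 ± 0.19, 0.15 ± 0.14, 0.21 ± 0.25 and -0.04 ± 0.18, none called, and of -0.73 ± 0.19, -0.79 ± 0.14, -2.08 ± 0.25 and -1.07 ± 0.18 from XX control, all called. The genes that rose were Sp5 and Tnfrsf19. Sp5, a transcriptional repressor induced by WNT, read 72.3, 193.5, 187.3 and 91.2 in XY control and 615.9, 797.6 and 297.2 in XY DKO (1.94 ± 0.33, adjusted p = 7.09e-05), and was not called against XX control (547.3 ± 89.6). Tnfrsf19, a receptor of the TNF receptor family, read 145.8, 193.3, 162.0 and 171.7 and then 498.4, 485.6 and 505.7 (1.48 ± 0.10, adjusted p = 1.82e-12), far under its 2692.3 ± 136.2 in XX control.

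The start of Tnfrsf19 is shown because it rose in gonads floxed for beta-catenin and holds ATCAAAG, core letters of TCF and LEF proteins, through which beta-catenin acts (chr14:61037938-61038237, minus strand, GRCm38.p6, RefSeq, match in capitals).
Tnfrsf19: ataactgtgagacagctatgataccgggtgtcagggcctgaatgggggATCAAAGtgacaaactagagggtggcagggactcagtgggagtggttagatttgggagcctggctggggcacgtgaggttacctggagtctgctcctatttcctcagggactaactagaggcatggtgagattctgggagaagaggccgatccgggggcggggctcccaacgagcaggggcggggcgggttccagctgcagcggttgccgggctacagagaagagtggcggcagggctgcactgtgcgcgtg
On both strands together, 3.73% of all 32851 windows held these letters, and 2 of the 12 windows of WNT list genes.

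**Figure D3:**
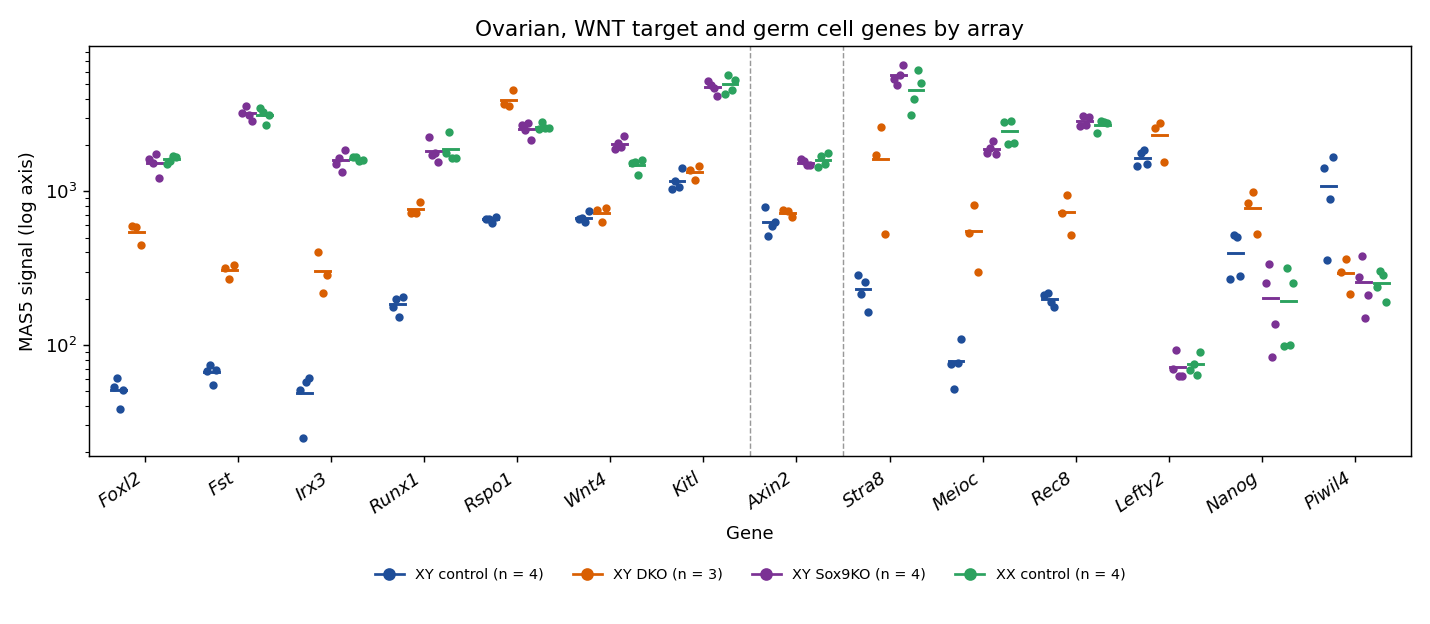
MAS5 signal (log y axis) of ovarian, WNT target and germ cell genes (x axis) on each array of XY control (n = 4), XY DKO (n = 3), XY Sox9KO (n = 4) and XX control (n = 4), with group means as bars and dashed lines between the 3 blocks. Foxl2, Fst, Irx3 and Runx1 of XY DKO lay between the controls, Rspo1 above the 3 other groups plotted, and Wnt4, Kitl and Axin2 at the XY control level, while the 3 XY DKO arrays spread widely for Stra8 and Meioc.

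On the probe sets used, genes of the early, bipotential gonad showed small differences. Of 11 tested, 4 rose (Podxl, Wt1, Zfpm2 and Lhx9), 2 fell (Nr5a1 and Tcf21) and 5 were not called (median 0.14). Nr5a1, encoding SF1, whose regulatory sequence drives the Cre, read 2649.1, 2475.2, 2504.1 and 2478.4 in XY control and 1722.5, 1644.6 and 2152.6 in XY DKO (-0.46 ± 0.11, adjusted p = 0.00316). XX control read 1393.1 ± 135.4, below XY DKO (adjusted p = 0.00838). The other Nr5a1 probe set read 863.7 ± 135.4 in XY control, 397.8 ± 158.7 in XY DKO and 479.2 ± 86.3 in XX control. Whether XY DKO lay above the ovary for Nr5a1 thus depends on the probe set. On the other probe sets of Nr5a1 and Tcf21 the differences from XY control were larger, at -1.16 and -1.01. Wt1, a regulator of gonad formation, rose by 0.54 ± 0.13 to 3376.5 ± 615.0, near the 3702.4 ± 345.1 of XX control. Zfpm2 (FOG2, the cofactor of GATA4) and Lhx9 were higher than in each of the 3 other groups, Zfpm2 at 1017.7 ± 210.7 against 716.8 ± 68.2 in XY control and 707.1 ± 167.2 in XX control, and Lhx9 at 3240.9 ± 231.2 against 2431.7 ± 162.4 and 2552.9 ± 318.5. The call of Zfpm2 was lost without XY control replicate 3 or XY DKO replicate 4, and that of Lhx9 without XY control replicate 1 or 3 or XY DKO replicate 3 or 4 (highest adjusted p over all settings 0.153 and 0.0963). Without XY DKO replicate 4, 2 of the 11 rose, and without replicate 3, 1 fell.

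All 6 tested genes of steroid synthesis fell (median -1.25), and all 6 stayed above XY Sox9KO (median 1.84) and XX control (median 2.02). Cyp11a1, the enzyme that starts steroid synthesis from cholesterol, read 7629.1, 7766.0, 8268.1 and 7942.8 in XY control and 2986.1, 2525.8 and 2483.3 in XY DKO (-1.57 ± 0.33, adjusted p = 0.000933). In XY Sox9KO it read 15.7 ± 15.6 and in XX control 31.2 ± 18.6, a difference of 6.51 ± 0.33 between XY DKO and XY Sox9KO (adjusted p = 2.36e-15). This was the largest rise against XY Sox9KO among the genes named. Cyp17a1, needed for androgen synthesis, read 12393.2, 13188.5, 15238.1 and 11692.8 in XY control and 6680.4, 5084.0 and 4011.1 in XY DKO (-1.34 ± 0.27), with 112.1 ± 28.4 in XX control. Star, which carries cholesterol into mitochondria, fell from 3841.7 ± 220.7 to 1658.1 ± 170.2 (-1.21 ± 0.13) and read 291.2 ± 25.4 in XX control. Hsd3b1 (-1.30 ± 0.19), the lipoprotein receptor gene Scarb1 (-1.18 ± 0.09) and Fdx1 (-0.92 ± 0.11), which passes electrons to CYP11A1, complete the list. No XY DKO array of these 6 genes reached the XY control range. The share of all genes tested with such separate ranges is not given here, so this only describes the 6 genes. Gsta2, a glutathione transferase outside the list, had the same order with 1852.5 ± 264.9, 847.6 ± 45.7 and 40.0 ± 9.9 in XY control, XY DKO and XX control.

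Genes of the adrenal cortex and of cholesterol synthesis, the supply of steroid precursors, also fell in part. Of 4 adrenal genes tested, 2 fell, the steroid hydroxylases Cyp11b1 (434.8 ± 93.3 to 169.1 ± 60.4, -1.32 ± 0.32) and Cyp21a1 (325.3 ± 87.7 to 98.1 ± 28.1, -1.58 ± 0.40), while the ACTH receptor gene Mc2r and its accessory gene Mrap were not called (median -0.94). Without XY DKO replicate 3, 1 of the 4 was called, and without replicate 4, 3 were. The call of Cyp11b1 was also lost with a pseudocount of 1. Of 9 cholesterol synthesis genes, 8 fell and 0 rose (median -0.49), and without XY DKO replicate 2, 6 fell. Lss, lanosterol synthase, read 4019.4, 3334.7, 3744.7 and 3932.0 in XY control and 1602.4, 1450.8 and 1510.5 in XY DKO (-1.29 ± 0.09, adjusted p = 5.47e-12). Dhcr7, the last enzyme of the pathway, fell by 1.13 ± 0.12 on the log2 scale to 2130.2 ± 36.2. Both stayed above XX control, by 0.48 ± 0.09 and 0.45 ± 0.12. The falls of Sqle (-0.43 ± 0.10), Hmgcs1 (-0.47 ± 0.11), Insig1 (-0.49 ± 0.13) and Fdft1 (-0.38 ± 0.11) were smaller, and that of Fdft1 was lost without XY control replicate 1 or 3 or XY DKO replicate 2 or 4 (highest adjusted p over all settings 0.578).

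Receivers of the DHH signal in the interstitium did not move alike. Of 9 interstitial and hedgehog target genes, 4 fell, 1 rose and 4 were not called (median -0.26), while against XY Sox9KO 7 were higher and 0 lower (median 0.61) and against XX control 6 and 0 (median 0.56). Hhip, a membrane protein that binds and restrains hedgehog ligands, read 568.0, 607.5, 621.5 and 558.5 in XY control and 52.3, 49.9 and 59.7 in XY DKO (-3.11 ± 0.24, adjusted p = 3.68e-11). It was at the ovary level, with 38.1 ± 4.8 in XX control (0.37 ± 0.24, adjusted p = 0.27). Ptch1, the hedgehog receptor and a direct target, read 6282.9, 6404.7, 6401.2 and 6327.2 in XY control and 3153.0, 2866.3 and 2589.6 in XY DKO (-1.15 ± 0.09, adjusted p = 8.95e-11), above the 2087.8 ± 241.3 of XX control. Gli1, the transcription factor that hedgehog signalling induces, read 660.7, 483.9, 656.2 and 557.3 and then 257.4, 236.0 and 294.7 (-1.11 ± 0.31, adjusted p = 0.0116), against 45.1 ± 8.9 in XX control. The call of Gli1 was lost without XY DKO replicate 3 and with a pseudocount of 1, although the ranges of its arrays did not overlap. Jag1, the Notch ligand, fell from 2687.9 ± 214.7 to 1262.6 ± 102.9 and stayed above XX control (553.9 ± 39.4). Pdgfra, the receptor of interstitial progenitors, read 5364.4 ± 347.6 against 5460.0 ± 971.7 in XY control (-0.01 ± 0.12, adjusted p = 0.964) and 2013.4 ± 53.1 in XX control (1.41 ± 0.12, adjusted p = 3.3e-10). Gli2 and Nr2f2 (COUP-TFII, a factor of interstitial progenitors) were likewise not called against XY control (-0.26 ± 0.16 and -0.14 ± 0.09) and were higher than in XX control (1.21 ± 0.16 and 0.56 ± 0.09). The Nr2f2 value is that of its brightest probe set. Every other Nr2f2 probe set read lower in XY DKO than in XY control, by -0.48 to -1.19, so its level against XY control depends on the probe set. Gli3 rose by 0.53 ± 0.11, a call that the mean of its probe sets did not give (highest adjusted p over all settings 0.206).

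Of 5 myoid and smooth muscle genes tested, 3 fell, namely Acta2 (-0.40 ± 0.13), Myocd (-0.75 ± 0.19) and Tagln (-0.71 ± 0.25), with a median of -0.40, and without XY DKO replicate 3 none of the 5 was called, without replicate 4 only 1. Acta2, the smooth muscle actin of peritubular myoid cells, read 5484.9 ± 545.5 in XY DKO, against 7231.6 ± 466.0 in XY control and 2413.5 ± 148.8 in XX control. Of 12 cord matrix genes, 6 fell, 1 rose and 5 were not called (median -0.26), and without XY DKO replicate 4, 4 fell. The basement membrane collagens Col4a1 and Col4a2 fell by 0.60 ± 0.09 and 0.65 ± 0.10 on the log2 scale, and Tinagl1, a matrix protein, by 0.95 ± 0.13, to levels above XX control. Nid1 and Lamb1 (-0.02 ± 0.06 and -0.06 ± 0.07) were not called against XY control and were higher than in XX control by 0.72 ± 0.06 and 0.53 ± 0.07. Nid2 rose, to 2007.3 ± 118.2 from 1504.6 ± 123.2, and XX control read 1293.9 ± 15.0.

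**Figure D4:**
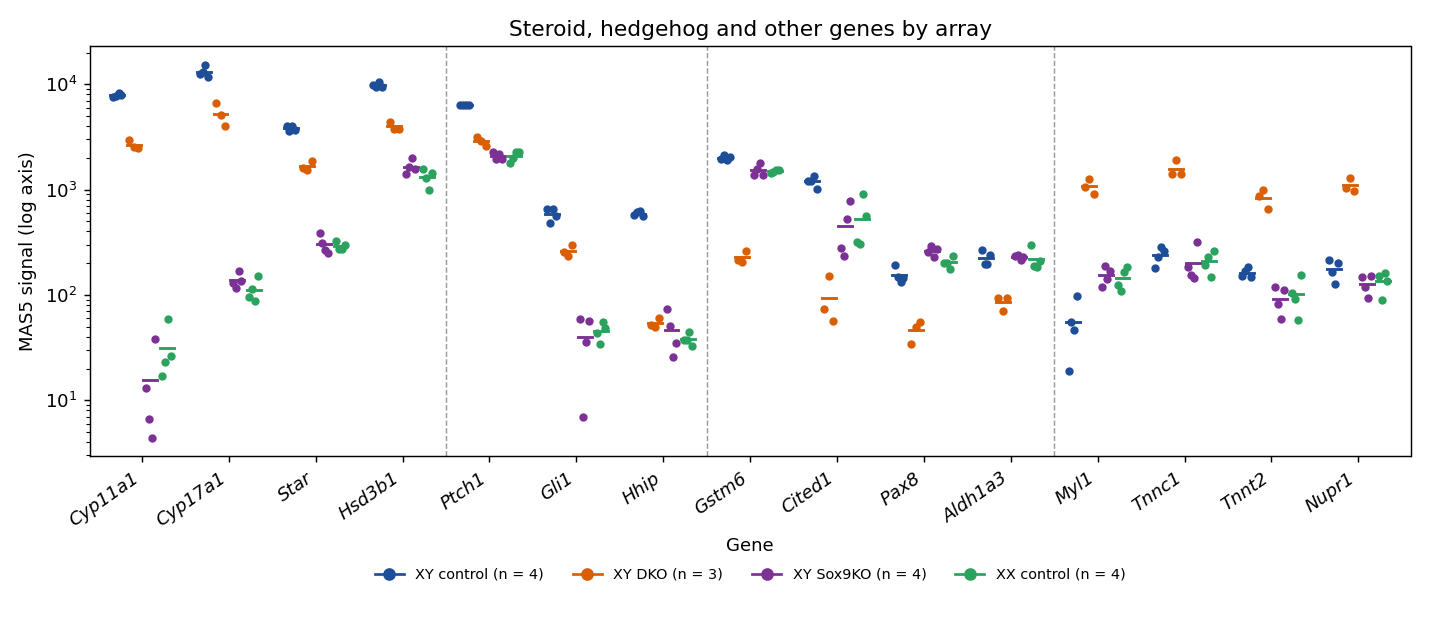
MAS5 signal (log y axis) of steroid, hedgehog and other genes (x axis) on each array of XY control (n = 4), XY DKO (n = 3), XY Sox9KO (n = 4) and XX control (n = 4), with group means as bars and dashed lines between the 4 blocks. XY DKO lay between the controls for the steroid genes, at the ovary level for Hhip, below the 3 other groups plotted for Gstm6, Pax8 and Aldh1a3, and above them for Myl1, Tnnc1, Tnnt2 and Nupr1.

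Germ cell genes took a mixed course. Of 17 meiosis genes tested, 9 rose, 0 fell and 8 were not called against XY control (median 0.77), while against XX control 13 were lower and 0 higher (median -1.33) and against XY Sox9KO 11 and 0 (median -1.16). Without XY DKO replicate 4, 7 were lower than in XX control (median -0.87) and 5 lower than in XY Sox9KO (median -0.84). Stra8, the retinoic acid-induced gene of meiotic entry, read 284.2, 213.4, 256.5 and 165.0 in XY control and 1729.1, 2612.8 and 530.1 in XY DKO (2.49 ± 0.35, adjusted p = 2.92e-06). XX control read 4588.0 ± 1330.1, higher than XY DKO (-1.71 ± 0.35, adjusted p = 0.0004). All XY DKO arrays of Stra8 lay above the XY control range, and they spread widely among themselves, replicate 4 being the lowest. Meioc, which keeps germ cells in meiotic prophase, read 75.1, 51.7, 76.5 and 109.2 and then 532.4, 816.4 and 296.3 (2.51 ± 0.33, adjusted p = 1.09e-06). Rec8, the meiotic cohesin, rose from 199.2 ± 19.6 to 730.1 ± 215.7 (1.76 ± 0.17) and read 2713.2 ± 210.4 in XX control. Smc1b (1.83 ± 0.37), Hormad1 (1.37 ± 0.30) and Stag3 (1.06 ± 0.23), components of meiotic chromosome axes, rose too, while Sycp2 (0.48 ± 0.53) and Sycp3 (0.77 ± 0.39), also of the axes, were not called. Genes that act in recombination, Dmc1 (0.29 ± 0.37), Msh5 (0.06 ± 0.35), Prdm9 (0.60 ± 0.58) and Mei1 (0.72 ± 0.46), were not called against XY control and were lower than in XX control by -1.79 ± 0.37, -0.99 ± 0.35, -2.37 ± 0.58 and -2.16 ± 0.46. Without XY DKO replicate 3, 6 of the 17 rose and the median was 0.54.

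Of 8 fetal male germ cell genes tested, 2 rose, 3 fell and 3 were not called (median -0.32). Nodal and Lefty1, a TGF-beta family ligand and its antagonist that are active in male germ cells, rose. Lefty1 read 95.8, 314.3, 197.9 and 92.3 in XY control and 456.7, 591.6 and 265.0 in XY DKO (1.34 ± 0.35, adjusted p = 0.00697), against 5.4 ± 5.7 in XX control, and the 2 XY ranges overlapped. Neither rise was called without XY DKO replicate 3, nor that of Nodal without XY DKO replicate 2 or XY control replicate 4. The Nodal call was also lost with the mean of its probe sets and in a fit of only these 2 groups (highest adjusted p over all settings 0.505). That of Lefty1 was also lost with a pseudocount of 1. Lefty1, Nodal, Lefty2 and the NODAL coreceptor gene Tdgf1 were higher than in XX control, by 4.37 ± 0.35, 2.37 ± 0.27, 4.65 ± 0.17 and 2.18 ± 0.39. Lefty2 read 2582.3, 2796.6 and 1554.3 in XY DKO and 1647.4 ± 203.3 in XY control (0.45 ± 0.17, adjusted p = 0.0701). The genes that fell were Piwil4, Morc1 and Tdrd9. Piwil4 (MIWI2), a PIWI protein of transposon silencing, read 1414.7, 357.4, 896.1 and 1677.4 in XY control and 298.9, 365.1 and 213.5 in XY DKO (-1.66 ± 0.42, adjusted p = 0.00538), at the level of XX control (254.8 ± 51.8). The mean of its probe sets did not give this call (adjusted p = 0.0912). Piwil2 of the same list (-0.41 ± 0.27) and the piRNA genes Tdrd1 (-0.10 ± 0.24) and Mael (-0.01 ± 0.29) of the pan-germ cell list were not called. The differences of Morc1 and Tdrd9 were -2.59 ± 0.45 and -1.41 ± 0.35, and for all 3 genes that fell XY control replicate 2 was the lowest of its group, which made the Piwil4 and Tdrd9 ranges overlap.

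Genes common to all germ cells varied widely between the XY DKO arrays. Of 12 tested, 3 rose (Ddx4, Sox2 and Kit), 0 fell and 9 were not called (median 0.18), and without XY DKO replicate 2 or 3 none was called. Nanog, a pluripotency factor, read 270.4, 518.9, 506.9 and 281.2 in XY control and 834.5, 981.8 and 530.9 in XY DKO (0.98 ± 0.48, adjusted p = 0.171) and was higher than in XX control (192.5 ± 110.9, adjusted p = 0.00188). Pou5f1, Dppa3 and Dppa5a, further genes of that state, were also not called against XY control and were higher than in XX control by 1.10 ± 0.38, 1.16 ± 0.32 and 1.41 ± 0.31.

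The spread was shared by all germ cell lists. The mean log2 level of the 12 pan-germ cell genes was 10.36, 10.63 and 9.65 on XY DKO replicates 2, 3 and 4, and 9.80 to 10.09 in XY control. For the 17 meiosis genes it was 9.43, 9.81 and 8.59, against 8.08 to 8.29, and for the 8 male germ cell genes 8.60, 8.76 and 7.84, against 8.61 to 9.11. Replicate 4 was thus the lowest and replicate 3 the highest in each of these lists. Replicate 4 was also the lowest and replicate 3 the highest for the 8 striated muscle genes, at 9.36, 9.70 and 8.34 (XY control 6.89 to 8.02). Sertoli, ovarian and steroid genes did not show this order: the mean level was 8.45, 8.32 and 8.54 for Sertoli cell genes (XY control 10.19 to 10.29), 9.17, 9.04 and 9.16 for ovarian genes (7.93 to 8.01), and 11.69, 11.49 and 11.46 for steroid genes (12.74 to 12.91). The part of germ cell number in the germ cell results was not tested.

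**Figure D5:**
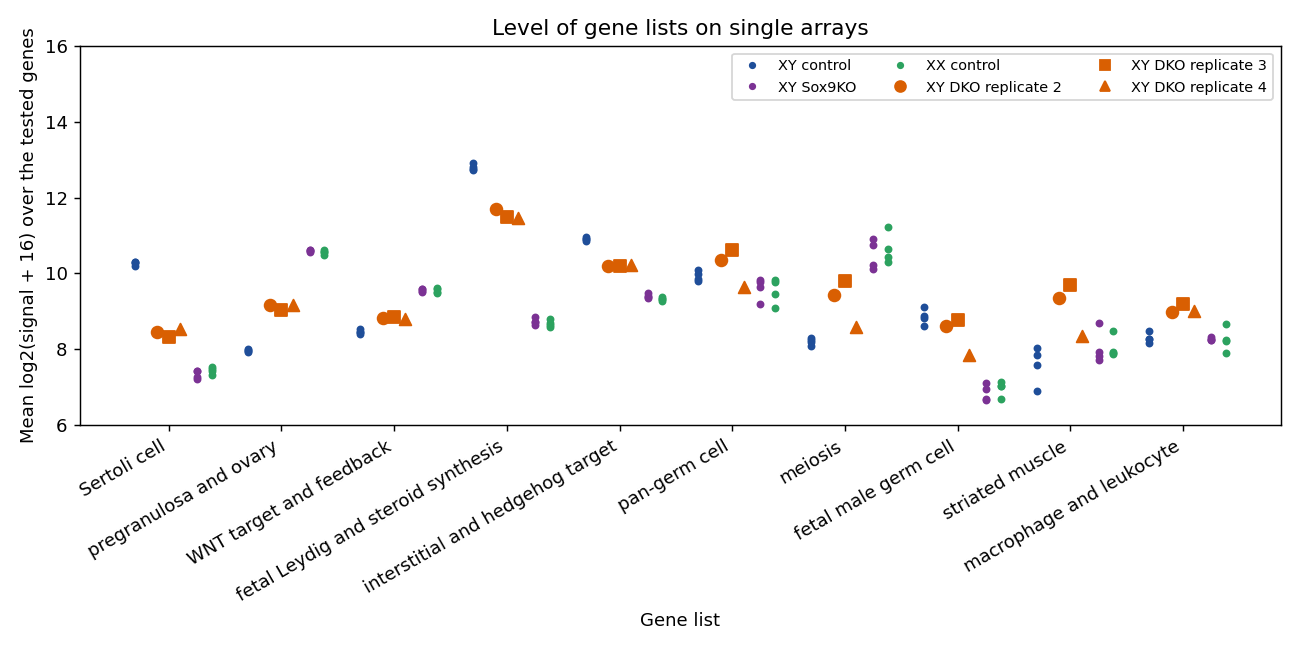
Mean log2(signal + 16) over the tested genes of 10 lists (y axis), one point per array of XY control, XY Sox9KO, XX control and XY DKO, whose replicates 2, 3 and 4 have a circle, a square and a triangle (x axis, gene list). The XY DKO symbols lay together for the Sertoli, ovarian, WNT, steroid and hedgehog lists and apart for the pan-germ cell, meiosis, male germ cell and striated muscle lists.

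Retinoic acid, which drives meiotic entry, has its own synthesis and carrier genes. Of 7 tested, 3 fell, 2 rose and 2 were not called (median -0.39). Aldh1a2, a synthesising enzyme, read 1739.0, 1774.7, 1476.4 and 1553.4 in XY control and 2013.4, 2181.7 and 2224.7 in XY DKO (0.39 ± 0.09, adjusted p = 0.00324), at the level of XX control (2100.2 ± 143.0). Aldh1a1, which makes the same product, fell from 7603.2 ± 251.4 to 4661.6 ± 464.4 (-0.71 ± 0.08), near the 4207.9 ± 199.0 of XX control. Crabp1, a retinoic acid-binding protein, rose from 346.7 ± 46.8 to 983.4 ± 234.2 and stayed below XX control (1495.7 ± 300.6). Aldh1a3, another synthesising enzyme, was lower in XY DKO than in the 3 groups compared. It read 265.4, 196.5, 197.2 and 238.7 in XY control, 93.3, 69.8 and 94.3 in XY DKO, 219.5 ± 51.2 in XX control and 229.1 ± 11.4 in XY Sox9KO (-1.24 ± 0.18, -1.20 ± 0.18 and -1.28 ± 0.18 in that order, all called). XY Ctnnb1KO and XX DKO were also low, at 58.8 ± 7.6 and 63.8 ± 15.1.

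Other genes were also below XY control, XX control and XY Sox9KO. Gstm6, a glutathione transferase, read 1944.5, 2125.0, 1914.7 and 2022.2 in XY control and 215.6, 204.6 and 263.6 in XY DKO (-3.05 ± 0.12, adjusted p = 7.73e-18), although both XX control (1497.1 ± 43.1) and XY Sox9KO (1531.4 ± 198.2) kept a high signal. The difference from XX control was -2.64 ± 0.12 (adjusted p = 6.79e-17). XX DKO read 379.4 ± 46.0 and XY Ctnnb1KO 1638.8 ± 163.3. Pax8, a transcription factor of kidney and mesonephric tubules, read 193.0, 147.3, 132.2 and 145.4 in XY control and 33.9, 49.4 and 55.2 in XY DKO (-1.46 ± 0.27), and XX control read 204.1 ± 22.8 (-1.83 ± 0.27). Pax8 was also low in XY Ctnnb1KO (23.9 to 61.4) and XX DKO (31.6 to 109.1). Cited1, a transcriptional coactivator, fell from 1197.4 ± 134.7 to 93.5 ± 49.6, Kazald1 from 1553.4 ± 235.4 to 197.4 ± 20.2 and Vsnl1, a calcium sensor, from 1111.2 ± 228.0 to 133.6 ± 50.4. These 3 genes were lower than in XX control by -2.26 ± 0.44, -1.47 ± 0.27 and -0.82 ± 0.25. Nts, encoding neurotensin, was among the largest falls (932.1 ± 204.8 to 59.7 ± 15.3, -3.64 ± 0.31) and stayed above XX control (18.3 ± 7.8, adjusted p = 0.00592).

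Striated muscle genes included the largest rise. Myl1, a myosin light chain, read 18.9, 55.4, 46.3 and 98.4 in XY control and 1066.8, 1272.7 and 899.4 in XY DKO (4.06 ± 0.29, adjusted p = 7.91e-12), and 145.1 ± 35.1 in XX control. XX DKO was also high for Myl1, at 1189.9 ± 214.6, whereas XY Ctnnb1KO read 136.8 ± 59.8. Tnnc1, the troponin C of slow and cardiac muscle, read 179.6, 229.7, 282.9 and 258.5 and then 1412.1, 1920.4 and 1409.0 (2.66 ± 0.30), and Tnnt2, cardiac troponin T, rose from 161.8 ± 17.1 to 837.2 ± 168.5 (2.25 ± 0.29). All 3 genes were above XX control by at least 2.78 on the log2 scale on average. Of the 8 striated muscle list genes tested, which do not include Tnnt2, 2 rose and 6 were not called (median 1.26). These 6 had differences of 0.34 ± 0.18 (Tnnt1) to 1.39 ± 0.53 (Myh3), all above 0. Without XY DKO replicate 4, 6 of the 8 rose (median 1.89). Its summed signal ran from 1675 to 2788 in XY control and from 4017 to 7846 in XY DKO. The defining genes Myog (18.7 to 78.0 in XY control and 37.1 to 111.8 in XY DKO), Acta1 (3.1 to 34.2 and 6.3 to 81.1) and Chrna1 (2.9 to 8.2 and 1.4 to 11.2) were dim in both groups and did not pass the filter. Mylpf read 536.0, 1020.4 and 149.5 on the XY DKO arrays, whereas Myl1 and Tnnc1 were high on all 3. Myh8, a perinatal myosin heavy chain, read 199.8 to 261.2 in XY control and 945.8 to 1234.6 in XY DKO (2.10 ± 0.18). The part of muscle tissue in these values was not tested.

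Of the other largest rises, Nupr1, a stress-induced chromatin protein, read 216.4, 163.8, 126.7 and 199.7 in XY control and 1026.7, 1281.8 and 973.7 in XY DKO (2.54 ± 0.35), against 134.4 ± 31.6 in XX control and 411.7 to 1656.6 in XX DKO. Zg16, a secretory granule lectin, rose from 1007.9 ± 114.1 to 3989.4 ± 103.2 and was higher than in XX control by 1.64 ± 0.25, and XX DKO read 4950.6 ± 703.3. Cnmd, encoding chondromodulin, rose from 205.2 ± 26.3 to 770.8 ± 92.8, and read 24.8 ± 13.5 in XX control. Lmo7 rose by 2.10 ± 0.19, above XX control by 0.78 ± 0.19. Mettl24 and the motor gene Myo5b rose to the ovary range or a little past it, at 763.4 ± 121.8 and 1708.9 ± 73.4 against 710.2 ± 105.8 and 1193.0 ± 180.8 in XX control. Hemgn, a gene of blood cell precursors, read 2052.3, 1017.9 and 3577.7 in XY DKO and 416.7 ± 103.9 in XY control (2.22 ± 0.58), a call lost without XY DKO replicate 4 (adjusted p = 0.0553).

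Among markers of cells that are not gonad-specific, macrophage genes rose. Of 13 tested, 8 rose, 0 fell and 5 were not called (median 0.91), and 10 were higher than in XX control. C1qb, a complement subunit made by macrophages, read 1159.3, 996.2, 1236.6 and 982.1 in XY control and 2440.3, 3212.8 and 1973.8 in XY DKO (1.18 ± 0.16, adjusted p = 2.68e-06). Tyrobp, an adaptor of myeloid receptors, and Ptprc (CD45) rose by 1.18 ± 0.19 and 1.20 ± 0.23, whereas Mrc1 (-0.14 ± 0.23) and Cx3cr1 (0.18 ± 0.24) were not called. The summed signal of the list ran from 5626 to 7571 in XY control and from 11332 to 13666 in XY DKO. In XX DKO it was also high, at 10157 to 12691, and in XY Ctnnb1KO it ran from 6590 to 11257. The high level was thus not particular to XY DKO.

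Surface epithelium genes rose in part, 4 of 7 (median 0.69), with the keratin genes Krt7 (1.05 ± 0.12), Krt18 (0.99 ± 0.13) and Krt8 (0.91 ± 0.17) and the mesothelial gene Upk3b (0.69 ± 0.10). Krt8 and Krt18 stayed below XX control and Krt7 and Upk3b were not called against it. Of 16 endothelial genes, 3 fell (Emcn, Flt1 and Robo4), 1 rose (Stab2) and 12 were not called (median -0.18), while without XY DKO replicate 4, 4 fell and 2 rose, and without replicate 2 or 3, 2 fell. Robo4 lost its call without XY control replicate 1 or XY DKO replicate 2 or 3 (highest adjusted p over all settings 0.155). The summed endothelial signal was 7602 to 8936 in XY control and 6653 to 7638 in XY DKO. Of 6 erythroid genes, Klf1 rose (1.48 ± 0.49, adjusted p = 0.0359), a call lost without XY control replicate 1, 2 or 4 or XY DKO replicate 2 or 4, and the others were not called. Of 10 proliferation genes, 0 were called (median 0.13), with 1 at an unadjusted p under 0.05 in limma and 1 called without XY DKO replicate 4. Among 7 stress-responsive genes (immediate early and heat shock), Fos rose from 38.8 ± 18.7 to 139.5 ± 37.5, the near-identical Hspa1a and Hspa1b fell by 0.87 ± 0.23 and 1.16 ± 0.21 on the log2 scale, and 4 were not called. The call of Hspa1a was lost without XY DKO replicate 3 (adjusted p = 0.0603). In the mesonephric list, 6 of 8 genes had a probe set and 2 were tested, of which Pax8 fell and Lhx1 was not called (224.3 ± 62.2 and 346.2 ± 70.9), and its summed signal was 303 to 441 in XY control and 350 to 461 in XY DKO. The part of these cell types in the other results was not tested.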

How the data were processed

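The deposited unit is the MAS5 signal, an intensity that the authors computed for each probe set of 31 arrays, per the submitters' processing notes, with no version stated. The 2% trimmed mean is 500.0 on every array. Before hybridisation 40 ng of total RNA was amplified, which can favour transcript ends. Of 45101 probe sets, 64 are controls, 34945 carry a single gene symbol in the platform annotation, 932 several and 9160 none, and RefSeq matched 34741. For each of 18193 genes the probe set with the highest mean was used, and 11779 genes passed a filter (above the array's own median on at least 3 arrays). Tests ran on log2(signal + 16) in limma 3.58.1 (R 4.3.3), as 8 group means over all arrays with eBayes and a trend.

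Genes named are Sox9, Ctnnb1 and sex-linked genes, up to 4 called members of each list plus those needed to say which were not called, and extremes of called genes with separate ranges (12 each way against XY control, 6 each way elsewhere). Members and lists were chosen with earlier results of these data known, and further members were picked after their values were seen. Lists hold genes that several tissues express. Alternatives covered normalization, pseudocount (1 or 64), filter, probe set choice, arrays in the fit, a replicate block and leaving out each array. Deviations of same-numbered XY DKO and XY control arrays from their group means had correlations of -0.00, 0.23 and 0.28. The correlations of XY DKO with XY Sox9KO were -0.243 to -0.458, and those with XX control -0.418 to 0.265. They had no common sign over the 3 comparisons, so numbers were not treated as pairs in the main fit. List genes without a uniquely named probe set were not analysed here.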

Additional observations from a re-analysis of the deposited data

Results flagged for a closer look

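In XY control, 6 of 101 named genes had 1 array far from the other 3, measured as the gap to the nearest array over the whole range of the group, which chance gives for about 1 in 20 genes. XY control replicate 2 was low for the male germ cell genes Morc1 (91.8) and Tdrd9 (146.1) and for Xist (61.2). XY control replicate 1 was high for the macrophage gene Laptm5 (2122.4) and for the ovarian gene Msx1 (68.5). XY control replicate 3 was low for Mettl24 (112.4). The XY DKO group, with 3 arrays, is too small for this check.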

How the results depend on the processing

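For XY DKO against XY control, the number of genes called was 2032 and lay between 1740 and 2098 under quantile normalization, pseudocounts of 1 and 64, no filter, the mean of probe sets, a fit of only these arrays and a replicate block. Leaving out single arrays gave 1391 to 2017 calls, with 740 to 1148 higher and 651 to 869 lower. The lowest of these, 740 higher genes against 1135, came without XY DKO replicate 3. Fitting only the arrays of a comparison gave 1709 calls against XY Sox9KO, 853 of them higher, and 2051 against XX control, 1114 of them higher, in place of 2573, 1305, 3091 and 1716, where fewer arrays estimate the spread. Leaving out single arrays gave 1919 to 2828 calls against XY Sox9KO and 2426 to 3265 against XX control. With the replicate number as a block, 1902 genes were called against XY control, 2574 against XY Sox9KO and 3055 against XX control. Of the 130 named or listed genes called against XY control, 98 were called in each of 15 other settings and 32 lost the call in at least 1, and none turned its direction. Tagln lost it in 11 settings, Kit in 9 and Rhox9 in 8. XY DKO rests on 3 arrays, whose germ cell and muscle levels differ. The rise of the dim gene Calb1 was not called with a pseudocount of 64.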
